A study of Mus musculus with 6 samples.

Results

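Frizzled receptors are the membrane receptors that bind secreted Wnt proteins, and the mouse genes Fzd1 to Fzd10 encode the family. All probe sets whose gene symbol in the array's annotation is Fzd1 to Fzd10 were taken, which gave 26 probe sets for 10 genes, of 45037 probe sets and 18193 genes with 1 symbol on the array. Another 2 probe sets carry the symbol Fzd10os, a separate transcript, and were not counted. The family was selected by name and with values of this same comparison already known, among them those of Fzd5 and Fzd7. The differences of Frizzled probe sets are therefore given as a description, without a p-value. RNA came from R1 mouse embryonic stem cells that had been infected with a lentivirus and sorted for GFP. The lentivirus expressed KIAA1718 shRNA1, a short hairpin RNA against KIAA1718 (mouse gene Kdm7a, a histone demethylase), for 3 arrays, or Luc shRNA, a hairpin against luciferase, for the other 3. Each group carried 1 hairpin, and an effect of its sequence on other genes cannot be told apart from an effect on the target. The labels leave unsaid whether the 3 arrays of a group stand for independent infections, so every p-value here rests on array-to-array spread that may be technical.

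A Frizzled binds Wnt through a cysteine-rich domain outside the cell and passes the signal to Dishevelled. With the co-receptors Lrp5 or Lrp6 this stabilises beta-catenin, and without them Frizzleds act in planar cell polarity and other branches. In mouse embryonic stem cells Wnt signalling is known to help hold self-renewal. By sequence the family falls into the groups Fzd1, Fzd2 and Fzd7; Fzd5 and Fzd8; Fzd3 and Fzd6; and Fzd4, Fzd9 and Fzd10.

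Promoter windows were available for Fzd1, Fzd4, Fzd5, Fzd7, Fzd9 and Fzd10, 6 of the 10 genes, in the RefSeq table of GRCm38.p6; Fzd2, Fzd3, Fzd6 and Fzd8 had none there. The 250 bases before the start are shown for Fzd5 and Fzd7, the genes whose signal was lower in KIAA1718 shRNA1 cells, and for Fzd1, whose groups overlapped. They lie at chr1:64737751-64738000 (minus strand), chr1:59481897-59482146 (plus strand) and chr5:4758217-4758466 (minus strand), and are written 5′ to 3′ on the gene's strand. Capitals mark matches, on either strand, to GGGCGG (the GC box), CCAAT (the CCAAT box), TATAAA (the TATA box) and, for TCF/LEF factors, ATCAAAG or AACAAAG.
Fzd5: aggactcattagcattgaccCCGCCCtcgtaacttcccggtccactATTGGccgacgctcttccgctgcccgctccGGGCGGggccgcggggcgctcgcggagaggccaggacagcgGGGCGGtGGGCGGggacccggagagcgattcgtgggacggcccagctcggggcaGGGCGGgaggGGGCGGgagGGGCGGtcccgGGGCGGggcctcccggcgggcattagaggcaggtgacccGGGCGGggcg
Fzd7: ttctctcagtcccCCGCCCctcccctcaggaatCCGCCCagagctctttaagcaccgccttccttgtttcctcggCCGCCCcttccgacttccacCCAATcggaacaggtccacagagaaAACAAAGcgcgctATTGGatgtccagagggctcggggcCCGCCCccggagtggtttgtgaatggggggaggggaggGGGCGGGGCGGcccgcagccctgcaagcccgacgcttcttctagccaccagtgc
Fzd1: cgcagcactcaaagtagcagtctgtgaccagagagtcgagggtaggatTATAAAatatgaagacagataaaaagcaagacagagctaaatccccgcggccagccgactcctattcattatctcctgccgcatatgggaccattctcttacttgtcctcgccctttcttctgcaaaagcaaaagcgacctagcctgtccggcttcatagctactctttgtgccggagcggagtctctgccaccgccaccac
The Fzd5 window held 9 GC box matches and 1 CCAAT match, and the Fzd7 window 6 GC box matches, 2 of which share a base, and 2 CCAAT matches. The Fzd1 window held neither, and had 1 TATAAA match. Fzd4, Fzd9 and Fzd10, whose groups also overlapped, did hold GC box matches. The Fzd4 window had 7 and 1 CCAAT match, and the Fzd9 and Fzd10 windows had 1 each and no CCAAT match. One of the TCF/LEF words occurred in the Fzd7 window, 130 bases before the start, and in none of the other 5. Of all 32851 promoter windows of that length, 32.7% held a GC box match, 33.8% a CCAAT match, 12.4% a TATAAA match and 8.06% a TCF/LEF match. Guanine and cytosine made up 76.4% of the Fzd5 window, 65.2% of the Fzd7 window and 51.2% of the Fzd1 window, with a median of 52.4% over all windows. They made up 72.8% of the Fzd4 window and 76.4% of the Fzd9 and of the Fzd10 window. These matches describe the letters of the windows and say nothing of binding.

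The deposited values were linear signal intensities whose median ran from 11.1 to 13.3 on KIAA1718 shRNA1 arrays and from 9.58 to 12.9 on Luc shRNA arrays, so signals below are after quantile normalization between arrays. Differences are of log2(signal + 16), KIAA1718 shRNA1 minus Luc shRNA, and understate the change of dim probe sets. Kdm7a gave no check of the labels: its brightest probe set had signals of 31.8 ± 9.69 in KIAA1718 shRNA1 cells and 38.2 ± 1.12 in Luc shRNA cells (SD, n = 3 each), a difference of -0.20 (limma adjusted p = 0.534). Its other tested probe sets differed by -0.16 and -0.22 (limma adjusted p = 0.585 and 0.458). A fall of the target past the threshold was thus not seen on these arrays. The pluripotency factor genes Pou5f1 (1022 ± 83.9 in KIAA1718 shRNA1 cells and 1139.8 ± 106 in Luc shRNA cells) and Sox2 (1376 ± 16 and 1457 ± 61.1) were among 14 of 14 embryonic stem cell markers with enough signal to be tested. All 29 of the fibroblast markers on the array also had enough signal, such as Col1a2 at 491 ± 79.6 in KIAA1718 shRNA1 cells and 676 ± 212 in Luc shRNA cells. The fibroblast signals summed to 8282 to 11196 on KIAA1718 shRNA1 arrays and 8750.5 to 14887 on Luc shRNA arrays, the lowest in each group being replicate 1. In bulk RNA, fewer cells of a type and less RNA per cell cannot be told apart.

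Of the 26 Frizzled probe sets, 19 passed the filter on mean signal, at least 1 for each of the 10 genes, and 7 did not. In the fit over all tested probe sets, 3 of the 19 had an adjusted p under 0.05: Fzd5 and Fzd7 were lower and Fzd2 was higher in KIAA1718 shRNA1 cells, each by its brightest probe set. Over all 27022 tested probe sets 3.67% passed, 1.94% higher and 1.74% lower. With replicate number as a block 4 Frizzled probe sets passed, against 6.23% of all probe sets and 7.9% of all genes. The groups did not overlap for 8 of the 19, 4 higher and 4 lower, against 24.3% of all tested probe sets. Since results of this contrast were known when the family was taken, nothing is read from these shares. Levels of different probe sets depend on their probes and are not set against each other.

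**Figure D1:**
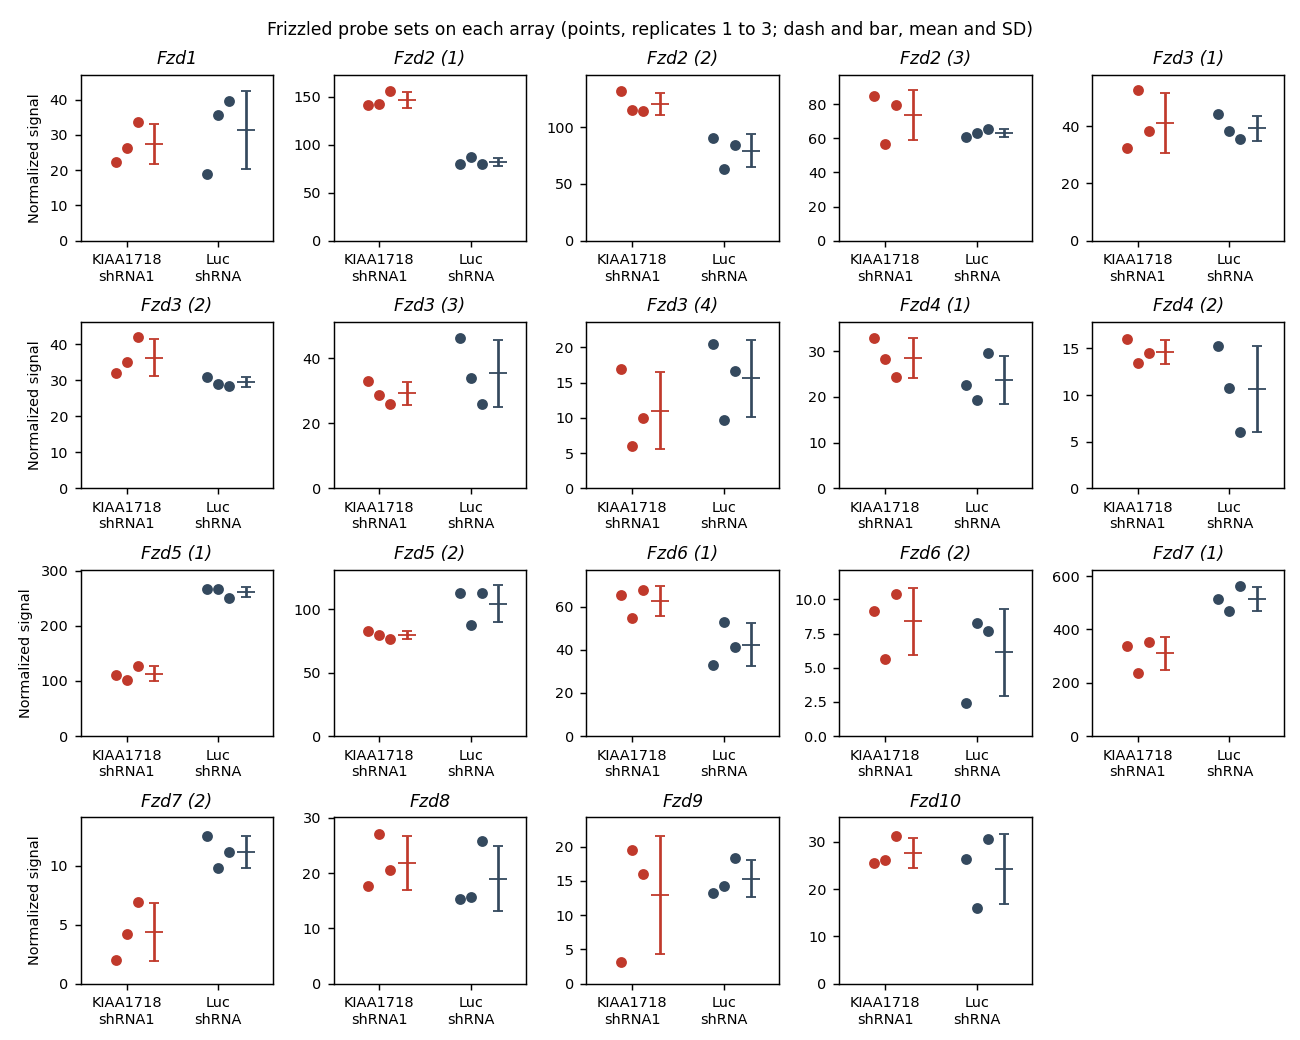
Normalized signal of the 19 tested Frizzled probe sets on each array, with KIAA1718 shRNA1 left of Luc shRNA, every axis starting at 0 and a number after the gene for its probe sets from bright to dim. Points are arrays in the order of replicates 1 to 3, and the dash and bar give mean and SD (n = 3). Both Fzd5 and both Fzd7 panels show the KIAA1718 shRNA1 points below all Luc shRNA points, and the first 2 Fzd2 panels show them above.

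Fzd7 has been linked to self-renewal of embryonic stem cells. Its brighter probe set (1450044_at, Entrez gene 14369, chromosome 1) had signals of 337, 238 and 354 on KIAA1718 shRNA1 replicates 1, 2 and 3, against 513, 469 and 561 on Luc shRNA replicates 1, 2 and 3. Every KIAA1718 shRNA1 array lay below every Luc shRNA array, and replicate 2 was the lowest of its group in both. The means were 309.7 ± 62.6 in KIAA1718 shRNA1 cells and 514 ± 46.1 in Luc shRNA cells (SD, n = 3 each), a 1.66-fold lower signal and a log2 difference of -0.72 ± 0.14 (SE; 95% interval -1.02 to -0.41). Its dim probe set (1450043_at) had signals of 2.04, 4.22 and 6.94 in KIAA1718 shRNA1 cells, against 12.5, 9.79 and 11.1 in Luc shRNA cells. These groups did not overlap either, and the difference was -0.42 ± 0.14, which did not pass the threshold. Without Luc shRNA replicate 3 the brighter probe set no longer passed, at -0.66. It also did not pass with unscaled values, at -0.58, with no filter on dim probe sets, or with the fibroblast mean as a covariate, where the difference was -0.75.

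Fzd2, close in sequence to Fzd7, differed in the other direction. Its brightest probe set (1418532_at, Entrez gene 57265, chromosome 11) had signals of 141, 142 and 156 on KIAA1718 shRNA1 replicates 1, 2 and 3, against 80.1, 87.1 and 79.9 on Luc shRNA replicates 1, 2 and 3. The groups did not overlap, and each spanned less than the gap between them. Means were 147 ± 8.53 in KIAA1718 shRNA1 cells and 82.4 ± 4.1 in Luc shRNA cells (SD, n = 3 each), 1.78-fold higher, with a log2 difference of 0.72 ± 0.11 (95% interval 0.48 to 0.97). A further probe set (1418533_s_at, whose suffix marks probes shared by several transcripts) gave 132, 115 and 114 in KIAA1718 shRNA1 cells, against 90.5, 63.1 and 84.5 in Luc shRNA cells. Its difference of 0.53 ± 0.14 did not pass the threshold, although it did with replicate number as a block, where the value was again 0.53 ± 0.12. The last Fzd2 probe set (1418534_at) gave 84.9, 56.8 and 79.4 in KIAA1718 shRNA1 cells, against 60.8, 62.9 and 65.4 in Luc shRNA cells. Its groups overlapped, with replicate 2 of the KIAA1718 shRNA1 cells the lowest of all 6 arrays, and the difference was 0.17 ± 0.14. The 3 probe sets were thus on the same side of 0 and unequal in size.

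Fzd1, the remaining gene of this group, had 1 tested probe set (1437284_at), with signals of 22.3, 26.4 and 33.7 on KIAA1718 shRNA1 replicates 1, 2 and 3, against 18.9, 35.8 and 39.6 on Luc shRNA replicates 1, 2 and 3. The groups overlapped, and replicate 1 was the lowest array in both. The difference was -0.11 ± 0.18 (95% interval -0.51 to 0.29).

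Fzd5 had the largest difference of the tested Frizzled probe sets. Fzd5 is a receptor for several Wnts and in the mouse is needed for blood vessels of the yolk sac. The brighter probe set (1455604_at, Entrez gene 14367, chromosome 1) had signals of 111, 102 and 128 on KIAA1718 shRNA1 replicates 1, 2 and 3, against 267, 266 and 250.2 on Luc shRNA replicates 1, 2 and 3. All KIAA1718 shRNA1 arrays lay far below all Luc shRNA arrays, and the spread within each group was small beside that gap. Means were 113 ± 13.4 in KIAA1718 shRNA1 cells and 261 ± 9.55 in Luc shRNA cells (SD, n = 3 each), 2.30-fold lower, with a log2 difference of -1.10 ± 0.11 (95% interval -1.35 to -0.85). The other probe set (1422937_at) gave 82.5, 79.9 and 76.1 in KIAA1718 shRNA1 cells, against 113, 87.4 and 113 in Luc shRNA cells. Its groups did not overlap, the Luc shRNA replicate 2 array being the nearest to the KIAA1718 shRNA1 arrays, and the difference was -0.33 ± 0.13 (95% interval -0.61 to -0.05), which did not pass. The intervals of the 2 probe sets of Fzd5 do not meet. The annotation used here does not say which part of the transcript either one reads, and why they differ was not tested.

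Fzd8, the closest relative of Fzd5, had 1 tested probe set (1423348_at), with signals of 17.6, 27.1 and 20.6 in KIAA1718 shRNA1 cells, against 15.4, 15.8 and 25.8 in Luc shRNA cells. The groups overlapped across nearly their whole range, with 1 high array in each. The difference was 0.12 ± 0.16 (95% interval -0.23 to 0.46).

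**Figure D2:**
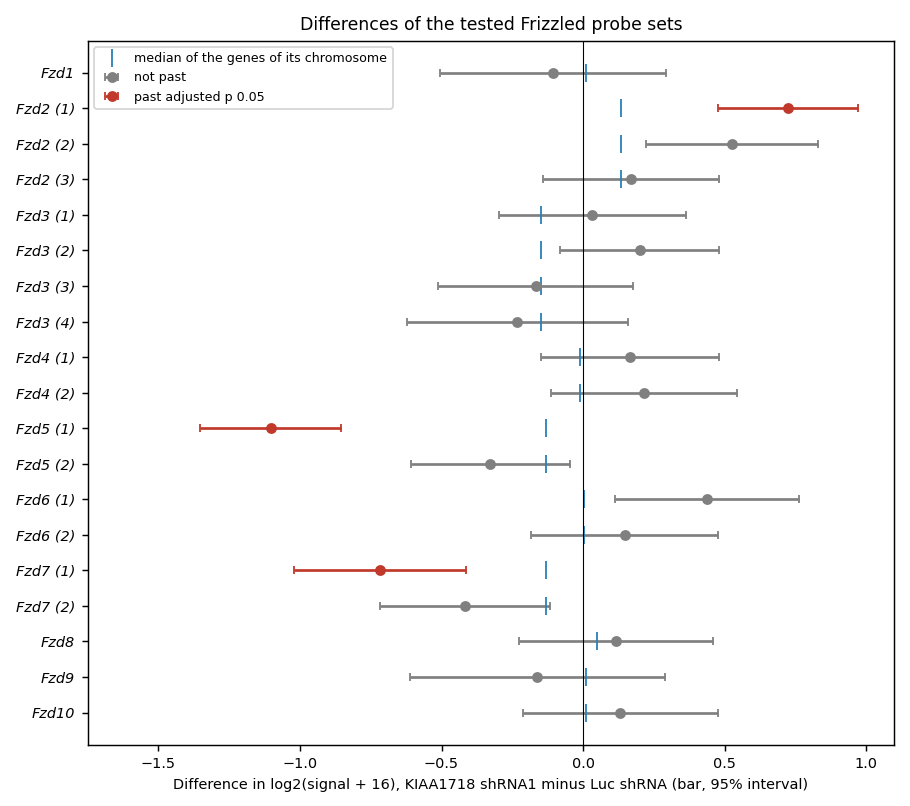
Difference in log2(signal + 16), KIAA1718 shRNA1 minus Luc shRNA, for each tested Frizzled probe set (n = 3 arrays a group), with 95% intervals and the median difference of all tested genes on the same chromosome. The brightest probe sets of Fzd5 (-1.10) and Fzd7 (-0.72) lie left of 0 and that of Fzd2 (0.72) right of it, beyond their chromosome medians of -0.13, -0.13 and 0.13.

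Fzd6 and Fzd3 act mainly in planar cell polarity, in the mouse in hair patterning and in axon guidance. The brightest Fzd6 probe set (1417301_at, chromosome 15) had signals of 65.5, 54.6 and 67.6 on KIAA1718 shRNA1 replicates 1, 2 and 3, against 33.1, 52.7 and 41.4 on Luc shRNA replicates 1, 2 and 3. The groups did not overlap, but the replicate 2 arrays of both groups lay close together. The difference was 0.44 ± 0.15 (95% interval 0.11 to 0.76) and did not pass the threshold. A dim Fzd6 probe set (1448662_at) differed by 0.15 ± 0.15 with overlapping groups. Among the 4 tested Fzd3 probe sets (chromosome 14), 2 had a positive and 2 a negative difference, between -0.23 ± 0.18 and 0.20 ± 0.13. The only Fzd3 probe set whose groups did not overlap (1434788_at) had 31.9, 35 and 42 in KIAA1718 shRNA1 cells, against 30.9, 28.9 and 28.3 in Luc shRNA cells. No direction can be given for Fzd3, since its probe sets disagree in sign.

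Fzd4, Fzd9 and Fzd10 make up the remaining group. Fzd4, the receptor through which norrin acts on retinal vessels, had tested probe sets at 32.9, 28.2 and 24.4 in KIAA1718 shRNA1 cells, against 22.5, 19.2 and 29.6 in Luc shRNA cells (1419301_at), and at 16, 13.4 and 14.5 in KIAA1718 shRNA1 cells, against 15.2, 10.7 and 6.01 in Luc shRNA cells (1434756_at). Both overlapped between groups, with differences of 0.17 ± 0.14 and 0.21 ± 0.15. Fzd9 (1427529_at) had 3.15, 19.6 and 16 in KIAA1718 shRNA1 cells, against 13.2, 14.3 and 18.4 in Luc shRNA cells. One KIAA1718 shRNA1 array, replicate 1, lay far below the rest, and without it the Fzd9 difference of -0.16 ± 0.21 became 0.11. Fzd10 (1455689_at) had 25.6, 26.1 and 31.2 in KIAA1718 shRNA1 cells, against 26.3, 15.9 and 30.5 in Luc shRNA cells, a difference of 0.13 ± 0.16 with overlapping groups. The 7 probe sets below the filter, of Fzd1, Fzd3, Fzd4, Fzd6, Fzd8 and Fzd10, had signals between 0.0943 and 9.25 on every array, with overlapping groups in each case. They were not tested.

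The genes that differed lie on chromosomes whose tested genes were shifted as a whole. The counts and medians of a chromosome include its Frizzled genes. On chromosome 1, which holds Fzd5 and Fzd7, 49 of 719 tested genes were lower and 13 higher, with a median difference of -0.13. On chromosome 11, which holds Fzd2, 72 of 1049 tested genes were higher and 5 lower, with a median of 0.13. Chromosomes 5, 7, 15 and 18, which hold other Frizzled genes, had medians of 0.01, -0.01, 0.004 and 0.05. No Frizzled probe set on them passed. A shift was, however, not confined to the chromosomes of Fzd5, Fzd7 and Fzd2. On chromosome 14, which holds Fzd3, 38 of 431 tested genes were lower and 4 higher, with a median of -0.15, and no Fzd3 probe set passed. Over all 12742 tested genes 2.17% were lower and 2.66% higher (limma, adjusted p under 0.05). After subtracting the chromosome's median the differences were -0.97 for Fzd5, -0.59 for Fzd7 and 0.59 for Fzd2. Among the 10 nearest tested genes on either side of Fzd5, the median difference was -0.11. There Adam23 at -0.57 and Lancl1 at -0.43 were lower (limma adjusted p = 0.0464 and 0.0478) and Zdbf2 at 0.72 was higher (adjusted p = 0.018). Around Fzd7 the median of 20 neighbours was -0.14, and Ndufb3, a complex I gene, was lower at -0.42 (adjusted p = 0.0466). Around Fzd2 the median was -0.06, and Fam171a2 was higher at 0.93 (adjusted p = 0.00443). The part of the chromosome-wide shifts in the Frizzled values was not tested beyond this subtraction.

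**Figure D3:**
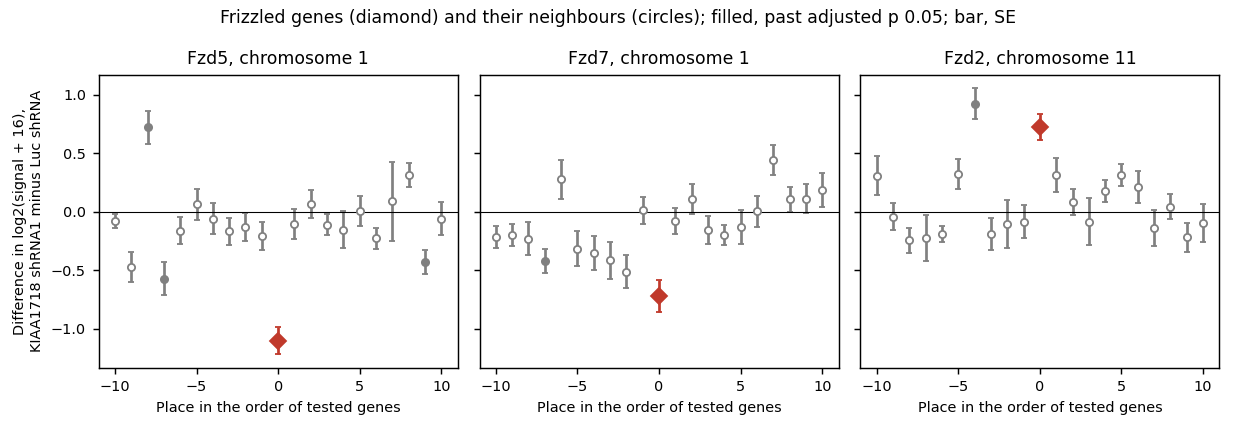
Difference in log2(signal + 16), KIAA1718 shRNA1 minus Luc shRNA, with SE, for Fzd5, Fzd7 and Fzd2 (diamonds) and the 10 nearest tested genes on either side (circles) in gene order. Filled symbols had an adjusted p under 0.05. Fzd5 at -1.10 and Fzd7 at -0.72 lie below all 20 of their neighbours, whose lowest values are -0.57 and -0.51, while Fzd2 at 0.72 lies below Fam171a2 at 0.93.

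Fibroblast markers varied between arrays beside some Frizzled genes. Their mean level was 7.12, 7.46 and 7.51 (log2) on KIAA1718 shRNA1 replicates 1, 2 and 3, against 7.21, 7.99 and 7.97 on Luc shRNA replicates 1, 2 and 3, a difference of -0.36 (two-sided exact permutation p = 0.3, where 3 against 3 arrays cannot give less than 0.1). That permutation test leaves replicate numbers out, and at each number the KIAA1718 shRNA1 array was the lower, so its p does not show that the level was equal. None of the 29 passed the threshold (limma). An unadjusted limma p under 0.05 was found for 6, but the share of all tested genes at that cutoff was not counted. The replicate block gave 12 lower, against 7.9% of all tested genes past the threshold in either direction with that block. Fzd1 followed these levels within the groups: its deviations from the group means correlated with those of the fibroblast mean at r = 0.96 over the 6 arrays, which share their groups and normalization. This was the highest of the 19 tested Frizzled probe sets, which ran down to -0.89 for 1450135_at of Fzd3. For the brightest probe sets of Fzd5 and Fzd7 the same value was -0.04 and -0.12, and for the Fzd2 probe sets 0.50, -0.72 and -0.11. With the fibroblast mean as a covariate the differences were 0.18 for Fzd1, -1.11 for Fzd5, -0.75 for Fzd7 and 0.76 for Fzd2. The part of fibroblast RNA in the Fzd1 signal was not tested further.

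Some markers of embryonic stem cells and of other states also differed between the groups. Of 14 tested embryonic stem cell markers 5 were lower and 0 higher (limma), against 2.17% lower and 2.66% higher of all tested genes. In the same fit 8 had an unadjusted limma p under 0.05. With the replicate block 6 were lower, against 7.9% of all tested genes in either direction with that block. Among the 5 were the pluripotency factor gene Klf4 at -0.91 (adjusted p = 0.00124) and Esrrb at -1.16 (adjusted p = 0.00403). The signals of the 14 summed to 13465 to 14443 on KIAA1718 shRNA1 arrays and 16022 to 16530 on Luc shRNA arrays. Of 14 tested primitive endoderm markers 4 were lower and 0 higher (7 had an unadjusted p under 0.05), Sox7 with the smallest p. The signals of all 16 on the array, untested ones included, summed to 1271 to 1391 on KIAA1718 shRNA1 arrays and 1566 to 2002 on Luc shRNA arrays. Of 6 tested neural progenitor markers Fabp7 was higher, at 0.94 (adjusted p = 0.0112), and Gbx2 lower, at -0.55 (adjusted p = 0.0335). Over the 9 on the array, untested ones included, the signals summed to 472 to 528 on KIAA1718 shRNA1 arrays and 535 to 677 on Luc shRNA arrays, while the mean log2 level was 5.44 ± 0.04 in KIAA1718 shRNA1 cells and 5.36 ± 0.07 in Luc shRNA cells (SD, n = 3 each), so sum and mean log2 differ in sign. The lists were chosen with earlier results known, and the share of all tested genes at an unadjusted p under 0.05 was not counted. Nothing is read from these marker counts, and the part of these states in the Frizzled differences was not tested.

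**Figure D4:**
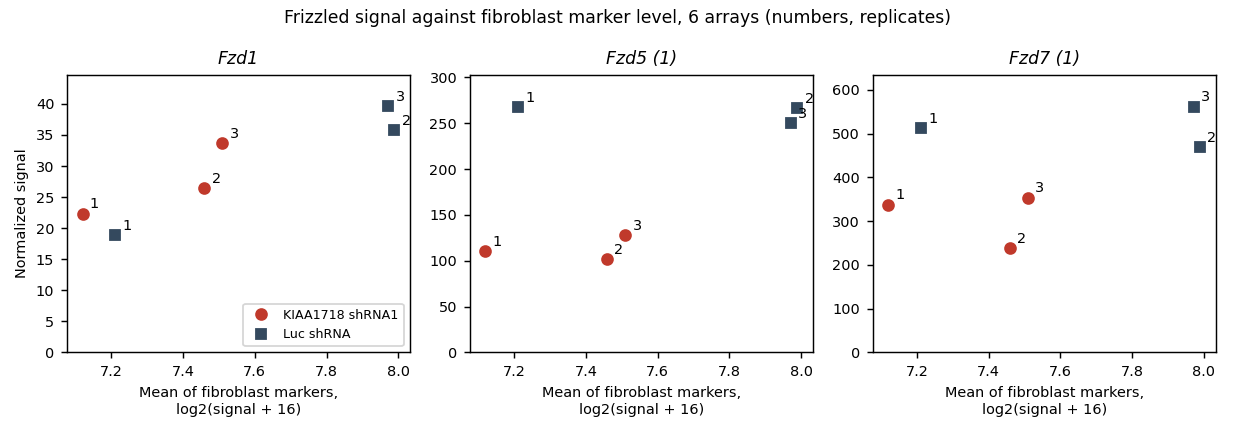
Normalized signal of the brightest probe sets of Fzd1, Fzd5 and Fzd7 against the mean log2(signal + 16) of 29 fibroblast markers, 1 point for each of the 6 arrays, with replicate numbers. Fzd1 is lowest on the replicate 1 arrays of both groups, where the fibroblast mean is 7.12 and 7.21. For Fzd5 and Fzd7 all KIAA1718 shRNA1 points lie below all Luc shRNA points. Only the replicate 1 arrays have close fibroblast means between groups. On replicates 2 and 3 these are 7.46 and 7.51 for KIAA1718 shRNA1 and 7.99 and 7.97 for Luc shRNA, so the groups are not compared at a shared high level.

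The genes whose pattern over the 6 arrays was most like that of the brightest Fzd5 probe set, of 12168 named genes, were Tenm4, Plgrkt, Tbc1d25, Xrcc5 and Ndufs1, with Pearson's r of 0.99 to 1.00. These genes were picked for a pattern that separates the groups, as 24.3% of all tested probe sets do, so their r and their differences are a description, with no test. Tenm4, which encodes a teneurin, had signals of 65.7 ± 4.98 in KIAA1718 shRNA1 cells and 129 ± 3.64 in Luc shRNA cells (SD, n = 3 each). Xrcc5, a DNA repair gene, and Ndufs1, a complex I gene, lie on chromosome 1 with Fzd5 and differed by -0.50 and -0.43. For the brightest Fzd2 probe set they were Myh10, Fgf8, Septin3, Ostc and Parp12, also at 0.99 to 1.00. Myh10, a nonmuscle myosin gene that lies on chromosome 11 with Fzd2, had 789 ± 29.4 in KIAA1718 shRNA1 cells and 526 ± 22.3 in Luc shRNA cells (SD, n = 3 each). The growth factor gene Fgf8 had 16.2 ± 0.69 in KIAA1718 shRNA1 cells and 3.55 ± 1.20 in Luc shRNA cells, near the bottom of the scale.

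Other genes of the pathway were counted on lists of ligands, receptors, inhibitors, intracellular parts and targets. Of 106 listed genes 102 had a probe set with 1 symbol and 80 were tested by their brightest probe set. In all, 8 passed the threshold, 4 higher and 4 lower, which is 10% against 4.83% of all tested genes. The median difference of the 80 was 0.04, against 0.00 for all genes. An unadjusted limma p under 0.05 was reached by 24 of the 80, and the share of all tested genes at that cutoff was not counted. Earlier results for Myc and Sp5 were known when the lists were drawn up. Nothing is therefore read from these shares or from unadjusted counts on single lists.

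Among the makers of the signal, none of 10 tested Wnt ligands passed (limma; 3 had an unadjusted p under 0.05) and their median was -0.07, the nearest being Wnt8a at 0.51 (adjusted p = 0.0717) and Wnt9a at 0.39 (adjusted p = 0.13). Porcn, the acyltransferase that attaches the lipid Wnts need for secretion, fell to 58.5 ± 12.5 in KIAA1718 shRNA1 cells, against 128 ± 14.2 in Luc shRNA cells (SD, n = 3 each), a difference of -0.96 ± 0.14 (limma adjusted p = 0.0053). It passed under all 15 alternatives with a test. Wls, the carrier that takes Wnts to the cell surface, differed by -0.14 (adjusted p = 0.749).

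At the cell surface none of 9 tested co-receptors and other receptors passed (limma; 1 had an unadjusted p under 0.05) and their median was 0.11, with Ror1 at 0.31 (adjusted p = 0.194) and Ryk at 0.24 (adjusted p = 0.297) the nearest. The co-receptor gene Lrp6, named after its value was seen, had 102 ± 16.2 in KIAA1718 shRNA1 cells and 101.6 ± 4.7 in Luc shRNA cells (SD, n = 3 each). Tspan12, a partner of Fzd4 in norrin signalling, differed by 0.55 (adjusted p = 0.0799) and was the 1 tested member of its list. None of 5 tested R-spondins, their receptors and the ubiquitin ligases that remove Frizzleds from the surface passed (2 had an unadjusted p under 0.05; median 0.05), with Lgr4 at 0.36 (limma adjusted p = 0.077) and Lgr6 at -0.38 (adjusted p = 0.21) the nearest. Of 12 tested secreted antagonists and Kremens, with a median of -0.02, only Sfrp1 passed. Sfrp1 carries a Frizzled-like cysteine-rich domain and binds Wnts outside the cell. It fell to 53.9 ± 5.84 in KIAA1718 shRNA1 cells, against 109 ± 19.1 in Luc shRNA cells (SD, n = 3 each), a difference of -0.83 ± 0.14 (limma adjusted p = 0.00954), with 5 of its 5 tested probe sets on the same side. Without Luc shRNA replicate 3, or with the fibroblast covariate, Sfrp1 did not pass. Dkk2, an inhibitor of the co-receptors, differed by -0.44 (adjusted p = 0.0883).

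Inside the cell, 2 of 20 tested genes of Dishevelled and the beta-catenin destruction complex, with a median of 0.11, passed, both higher: the F-box gene Fbxw11 at 0.37 ± 0.07 (limma adjusted p = 0.0223) and the casein kinase gene Csnk1d at 0.39 ± 0.09 (adjusted p = 0.0434). Both lie on chromosome 11, whose median was 0.13, and both lost their call without any 1 of 5 arrays, Luc shRNA replicate 1 being the exception. Of 10 tested planar cell polarity genes, with a median of -0.13, Prickle1 rose to 145 ± 33.2 in KIAA1718 shRNA1 cells, against 47.6 ± 4.48 in Luc shRNA cells (SD, n = 3 each), a difference of 1.32 ± 0.16 (adjusted p = 0.00145), and passed under all 15 alternatives. The atypical cadherin gene Celsr1 was lower, at -0.57 ± 0.13 (adjusted p = 0.0357), and lost its call when any 1 array was left out. Of 14 tested target genes, with a median of 0.19, the transcription factor gene Sp5 rose to 56.4 ± 7.05 in KIAA1718 shRNA1 cells, against 28.3 ± 2.31 in Luc shRNA cells (SD, n = 3 each; adjusted p = 0.0141), and Myc was lower, at -0.46 ± 0.10 (adjusted p = 0.0326). Sp5 did not pass without KIAA1718 shRNA1 replicates 2 or 3 or Luc shRNA replicate 3, and Myc did not when any 1 array was left out. With the fibroblast covariate, and also with no filter on dim probe sets, Fbxw11, Csnk1d, Celsr1, Sp5 and Myc did not pass. The feedback gene Axin2, named after its value was seen, had 41.8 ± 3.06 in KIAA1718 shRNA1 cells and 29.9 ± 7.02 in Luc shRNA cells (adjusted p = 0.221).

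**Figure D5:**
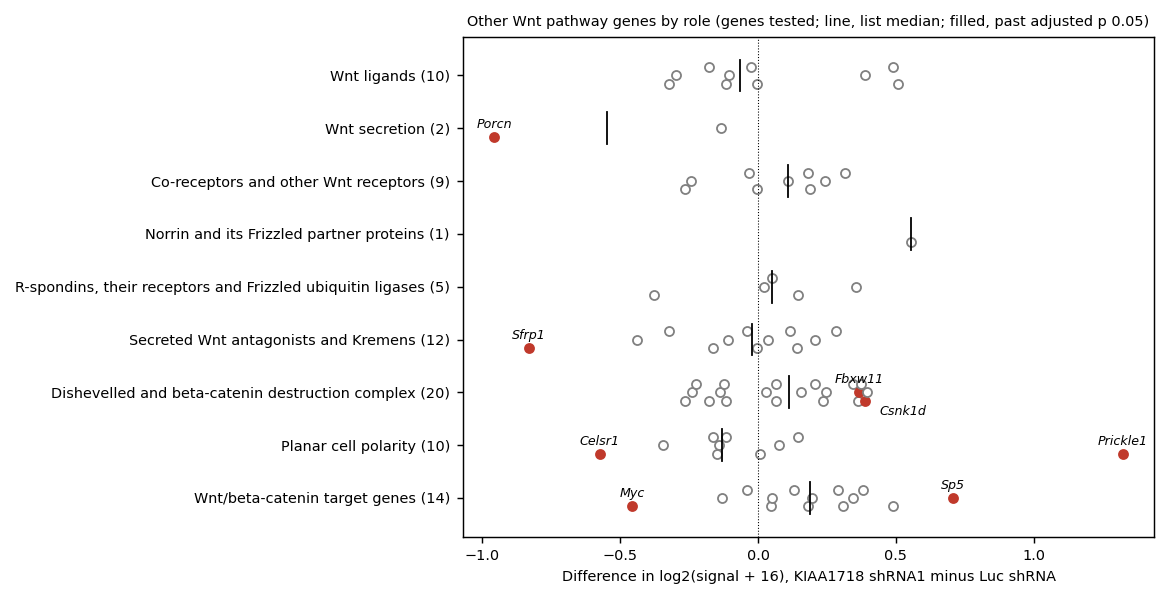
Difference in log2(signal + 16), KIAA1718 shRNA1 minus Luc shRNA, of the tested genes of 9 Wnt pathway lists, with the number tested in brackets and a line at each list's median. Filled points passed an adjusted p of 0.05; Prickle1 at 1.32 is the highest and Porcn at -0.96 the lowest.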

How the data were processed

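Transcript levels come from 6 Affymetrix mouse arrays, 3 a group; titles gave the groups and replicate numbers. Per probe set, the authors deposited a signal intensity on a linear scale. The submitters' processing notes name GCOS; no source used here gives its version or settings. The number of arrays limits the precision.

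The 64 control probe sets were left out. Intensities were quantile normalized between arrays, and log2(signal + 16) was taken. Probe sets in the lowest 40% by mean log2 value went untested. The two-sided test was limma 3.58.1 (R 4.3.3; lmFit, then eBayes with trend), with Benjamini-Hochberg adjustment over 27022 probe sets and a threshold of 0.05; every adjusted p comes from it. The fit was also run on simulated data with independent noise on each array, without the correlation between arrays of like replicate number. Recovery was required there only for changes larger than any Frizzled difference, so the simulation does not speak for smaller ones. Symbols were updated through the Entrez number with RefSeq genes of GRCm38.p6, which also gave chromosome and gene order. The promoter windows were of the same build, and matches to the motifs were counted in them on both strands. A gene was represented by its brightest tested probe set.

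The members, lists and tests were chosen with earlier results of these data known. Named are all Frizzled genes; Kdm7a; up to 4 members of each pathway list that passed, by size of change, or, where fewer than 2 passed, the 2 lowest p-values; and the 5 genes most correlated with each of the 2 Frizzled genes with the largest difference. Neighbouring genes past the threshold, Lrp6, Axin2 and marker genes fall outside this rule.

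Replicate numbers are shared between groups. Arrays sharing number 1, 2 or 3 had correlated deviations from their group means (r of 0.203, 0.125 and 0.132), against -0.15 to 0.0235 for unlike numbers. Each r for a shared number is over 0.1, so a fit with replicate number as a block was run as an alternative, on the data alone. The main fit, with its adjusted p-values, standard errors and intervals, and the permutation test left the pairing out. Blocked values stand beside the Frizzled and marker counts they change. No 2 arrays held the same values. Alternatives were other scalings, pseudocounts and filters, no trend, the block, a fibroblast covariate, chromosome centring and leaving out each array.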

Additional observations from a re-analysis of the deposited data

How the results depend on the processing

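The brightest probe sets of Fzd5 and Fzd2 passed under all 15 alternatives with a test, at -1.20 to -0.88 and 0.52 to 0.84. That of Fzd7 passed under 11, with differences of -0.82 to -0.55 over all 15. The family was taken with values of this contrast known, and the alternatives reuse the same 6 arrays. These calls therefore describe the dependence on processing and are no added support for the differences. The number of Frizzled probe sets past the threshold was 2 to 4 throughout, and 4 with the replicate block. Over all tested probe sets 993 passed. The count was 576 with no scaling, 290 with no filter (26 Frizzled probe sets tested, 2 past the threshold), 631 with no intensity trend, 1683 with the replicate block and 383 with the fibroblast covariate. Without 1 array it was 263 to 829: 614, 484 and 298 without KIAA1718 shRNA1 replicates 1, 2 and 3, and 829, 453 and 263 without Luc shRNA replicates 1, 2 and 3. Of the 8 Wnt pathway genes past the threshold, the count was 3 with no filter, 5 with no intensity trend and 2 with the fibroblast covariate. Without 1 array it was 2 to 6: 4, 3 and 3 without KIAA1718 shRNA1 replicates 1, 2 and 3, and 6, 4 and 2 without Luc shRNA replicates 1, 2 and 3. With the replicate block it was again 8. The replicate block changed the call of no Frizzled probe set other than 1418533_s_at of Fzd2. With no scaling 81.8% of the probe sets past the threshold were higher, with median scaling 40.7%, and with quantile normalization 52.8%; with no scaling the median difference of all genes was 0.11, against which Fzd5 stood at -0.97 and Fzd2 at 0.84. The fibroblast difference stayed negative, at -0.62 to -0.23 without 1 array. Signs turned in at least 1 alternative for the tested probe sets of Fzd1, Fzd9 and Fzd10 and for 1449730_s_at of Fzd3, none of which passed. The cause of these changes was not tested.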
